A study of Homo sapiens with 6 samples.

Results

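The genes described here are those of glycolysis and of lactate and pyruvate handling: glucose and lactate transporters, the glycolytic enzymes with their isozymes, the PFKFB and PDK regulatory enzymes, the mitochondrial pyruvate carrier, pyruvate dehydrogenase and the gluconeogenic enzymes *FBP1* and *PCK2*. They were chosen by gene symbol, and all 36 were among the 20824 genes of the deposited table. The study stably transfected the DCIS-like breast cancer line 21NT with pcDNA3.1 that was empty (EV) or carried *TBX3iso1* or *TBX3iso2*, the splice isoforms of the T-box transcription factor TBX3, and asked how each isoform altered the transcriptome. mRNA of each of the 3 lines was sequenced in 2 libraries. All lines, EV included, were kept under G418 in αMEM with insulin, EGF, hydrocortisone, sodium pyruvate and FBS, and RNA was taken before full confluence. Each line was a pool of resistant clones from a transfection, so the libraries of a line are not separate transfections, and the sources do not say that they came from separate cultures. The p-values then measure only the spread between these libraries, which may be technical.

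Glycolysis splits glucose into pyruvate in the cytosol and yields ATP and NADH. Pyruvate is either reduced to lactate by lactate dehydrogenase, which regenerates NAD, and exported by monocarboxylate transporters, or carried into mitochondria and oxidised by the pyruvate dehydrogenase complex, which the PDK kinases inhibit. Many steps have several isozymes that differ in regulation and tissue distribution, and many breast cancer cells are known for high glucose uptake and lactate output.

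The values are RPKM, which corrects reads for the length of the transcript and the depth of the library, so that levels of different genes can be set side by side per length. The libraries held 43176600 to 54512400 alignments. *TBX3* itself was at 8.52 and 8.24 RPKM in EV, 13.1 and 11.4 RPKM with TBX3iso1, and 17.5 and 15.5 RPKM with TBX3iso2. In limma, its log2 fold change over EV was 0.54 ± 0.0989 (SE, adjusted p = 0.00378) with TBX3iso1, which is under the threshold of 1.5-fold used here for a call, and 0.97 ± 0.0989 (adjusted p = 0.000257) with TBX3iso2, which was called. All 8 breast epithelial markers examined were expressed, at 47.5 RPKM or more in every library, but some differed between the lines. *MUC1* was called lower than EV under both isoforms (log2 fold changes -1.67 for TBX3iso1 and -1.84 for TBX3iso2). *CDH1* was called lower for TBX3iso1 (-0.70), and *KRT19* and *ERBB2* for TBX3iso2 (-0.72 and -0.75). No epithelial marker was called higher than EV. Of the fibroblast, endothelial and leukocyte markers, 1 of 6 (*COL1A1*), 1 of 4 (*PECAM1*) and 1 of 4 (*CD14*) reached a mean of 0.5 RPKM. The summed RPKM of these lists was 4.55 to 4.83, 7.37 to 7.73 and 9.51 to 10.8 in EV, and 7.12 to 8.67, 1.26 to 1.46 and 2.26 to 2.62 in the TBX3 lines. Among the other markers of these lists, *THY1*, *VWF* and *PTPRC* were at 0.0304, 0.0179 and 0.0102 RPKM or less in every library. *LUM*, a fibroblast marker, reached 0.524 RPKM in the second TBX3iso1 library. Fewer cells expressing a gene and less RNA per cell cannot be told apart in these bulk libraries.

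For the comparisons, log2(RPKM + 0.1) was tested with limma over the 12805 genes that averaged 0.5 RPKM or more. A gene was called higher or lower at a Benjamini-Hochberg adjusted p under 0.05 over all genes tested and a fold change over 1.5, which is 0.58 on the log2 scale. Of the 36 members, 34 were tested. *PFKFB1* was at 0.0912 RPKM or less in every library, and *FBP1* averaged below the limit. With TBX3iso1 against EV, 7 members were called higher and 6 lower, or 38.2% of those tested, where 21.5% of all genes were called (7.46% higher and 14.1% lower). With TBX3iso2 against EV, 1 member was called higher and 8 lower, or 26.5%, beside 21.2% of all genes (8.94% higher and 12.3% lower). Between TBX3iso2 and TBX3iso1, 2 members were higher and 5 lower with TBX3iso2, or 20.6%, beside 6.29% of all genes (3.47% higher and 2.82% lower). At an adjusted p under 0.05 and any fold, 24, 20 and 9 members passed in these 3 comparisons, beside 44.8%, 45.5% and 14.8% of all genes. The libraries of the lines compared did not overlap for 78.4%, 74.7% and 53.5% of all genes tested, so libraries that stand apart were common. The median log2 fold change of the members was 0.13, -0.03 and -0.14 in the same order, and that of all genes tested was -0.05, -0.00 and 0.05. The isoform comparisons with EV share the EV libraries, and their calls are named side by side. TBX3iso1 had *SLC2A3*, *PFKFB4*, *TPI1*, *GAPDH*, *ENO2*, *LDHB* and *PDK1* higher than EV, and *HK2*, *PFKFB2*, *PDK2*, *PDK3*, *PDK4* and *PCK2* lower. TBX3iso2 had *PFKP* higher, and *SLC2A3*, *HK2*, *PFKFB2*, *ALDOC*, *PDK2*, *PDK3*, *PDK4* and *PCK2* lower.

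**Figure D1:**
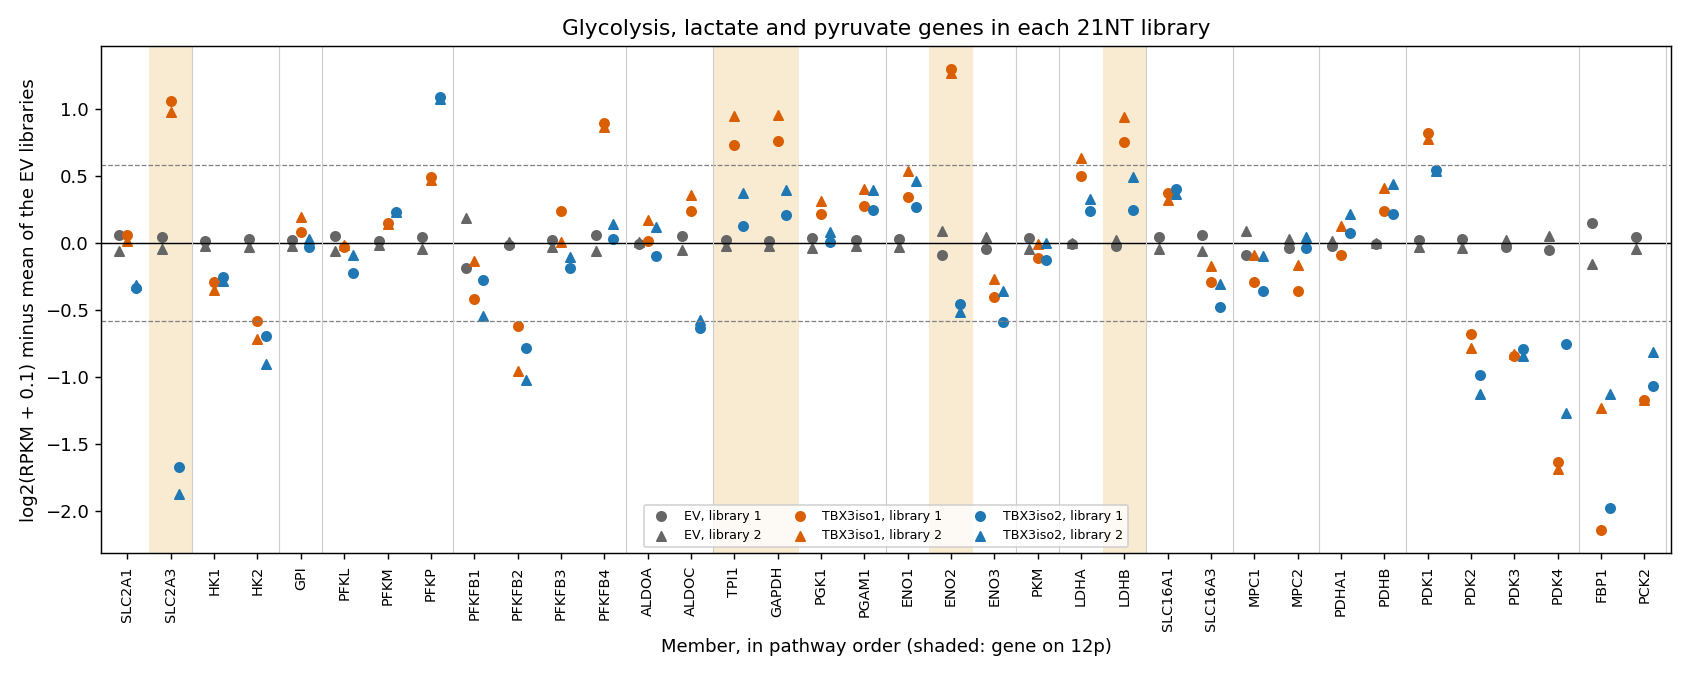
Each point is a library, at its log2(RPKM + 0.1) minus the mean of the EV libraries, for the 36 members in pathway order; dashed lines mark 1.5-fold and shading marks genes on 12p. The TBX3iso1 libraries lie above the upper line at *SLC2A3*, *PFKFB4*, *TPI1*, *GAPDH*, *ENO2*, *LDHB* and *PDK1*, and both isoforms lie below EV at *HK2*, *PFKFB2*, *PDK2*, *PDK3*, *PDK4* and *PCK2*.

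Glucose enters through facilitative transporters and is trapped by hexokinase. *SLC2A1* (GLUT1), the widespread transporter, was the dominant one, at 236 and 218 RPKM in EV, 236 and 229 RPKM with TBX3iso1, and 179 and 183 RPKM with TBX3iso2. It was lower with TBX3iso2 than in EV by less than 1.5-fold (log2 fold change -0.32 ± 0.0863 (SE), adjusted p = 0.0181). *SLC2A3* (GLUT3), a high-affinity transporter typical of neurons, had levels of 1.95 and 1.83 RPKM in EV, 4.07 and 3.83 RPKM with TBX3iso1, and 0.525 and 0.442 RPKM with TBX3iso2. The 3 lines did not overlap: *SLC2A3* rose with TBX3iso1 (log2 fold change 1.02 ± 0.131, adjusted p = 0.000748) and fell with TBX3iso2 (-1.78 ± 0.131, adjusted p = 6.29e-05). Set directly against TBX3iso1, TBX3iso2 was lower by a log2 fold change of -2.80 ± 0.131 (adjusted p = 5.31e-05). *SLC2A3* supplied 0.829% of the summed RPKM of both transporters in EV, 1.67% with TBX3iso1 and 0.267% with TBX3iso2. Reads of *SLC2A3* can be shared with its close copy *SLC2A14*, which was not analysed here.

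Among hexokinases, *HK1*, the housekeeping isozyme, was the higher, at 58.1 to 59.6 RPKM in EV and 46.2 to 49.2 RPKM in the TBX3 lines. *HK2*, the insulin-responsive isozyme common in tumours, was at 28.4 and 27.3 RPKM in EV, 18.5 and 16.9 RPKM with TBX3iso1, and 17.2 and 14.9 RPKM with TBX3iso2. All 4 TBX3 libraries were below both EV libraries. *HK2* fell with TBX3iso1 (log2 fold change -0.65 ± 0.0926, adjusted p = 0.0012) and with TBX3iso2 (-0.80 ± 0.0926, adjusted p = 0.000449). The TBX3iso1 value was the called member nearest to the fold threshold, and it dropped below it, at -0.58, without the second TBX3iso1 library. *GPI*, which isomerises glucose 6-phosphate, was at 104 to 122 RPKM in all libraries and was not called.

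Phosphofructokinase commits the sugar to glycolysis, and of its 3 isozymes only *PFKP* was called. *PFKP*, the platelet-type isozyme, was at 70.7 and 66.4 RPKM in EV, 96.7 and 95.1 RPKM with TBX3iso1, and 147 and 144 RPKM with TBX3iso2. These lines were ordered without overlap. *PFKP* rose with TBX3iso2 against EV (log2 fold change 1.09 ± 0.0743, adjusted p = 4.69e-05) and against TBX3iso1 (0.60 ± 0.0743, adjusted p = 0.00279). With TBX3iso1 the log2 fold change against EV was 0.48 ± 0.0743 (adjusted p = 0.00169), under the fold threshold. *PFKL*, the liver-type isozyme, was the most abundant in EV, at 80.6 and 74.6 RPKM, and lay at 66.4 to 77.0 RPKM in the TBX3 lines, with no call. *PFKM*, the muscle-type isozyme, lay at 22.8 to 27.2 RPKM in all libraries, also with no call. *PFKP* therefore supplied 40.5% ± 0.0276 (SD, n = 2) of the summed phosphofructokinase RPKM in EV, 48.4% with TBX3iso1 and 60.1% with TBX3iso2, while *PFKL* supplied 45.8%, 38.7% and 28.7%. Together the isozymes summed to 169 RPKM in EV, against 198 RPKM for TBX3iso1 and 242 RPKM for TBX3iso2.

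The PFKFB enzymes make and degrade fructose 2,6-bisphosphate, the main allosteric activator of phosphofructokinase. *PFKFB3*, an isozyme with high kinase activity, was the most abundant, at 13.3 to 18.0 RPKM, and was not called. *PFKFB4* was at 4.57 and 4.20 RPKM in EV, 8.27 and 8.09 RPKM with TBX3iso1, and 4.49 and 4.84 RPKM with TBX3iso2. The TBX3iso1 libraries alone stood apart. *PFKFB4* rose with TBX3iso1 against EV (log2 fold change 0.89 ± 0.0922, adjusted p = 0.000296) and was lower with TBX3iso2 than with TBX3iso1 (-0.80 ± 0.0922, adjusted p = 0.00213), and its log2 fold change with TBX3iso2 against EV was 0.09 ± 0.0922 (adjusted p = 0.472). *PFKFB2*, the heart-type isozyme, was at 7.01 and 7.13 RPKM in EV, 4.57 and 3.60 RPKM with TBX3iso1, and 4.06 and 3.43 RPKM with TBX3iso2. It fell with both isoforms, by -0.79 ± 0.136 (adjusted p = 0.00291) and -0.90 ± 0.136 (adjusted p = 0.00154) on the log2 scale. Within the family, *PFKFB4* went from 16.4% in EV to 28.4% with TBX3iso1 and 21.0% with TBX3iso2, and *PFKFB2* from 26.5% to 14.1% and 16.9%.

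Aldolase splits fructose 1,6-bisphosphate. *ALDOA*, the ubiquitous aldolase, was at 599 to 720.4 RPKM in all libraries and was not called. *ALDOC*, the brain-type aldolase, was at 17.1 ± 0.917 RPKM (SD, n = 2) in EV, 21.1 ± 1.21 RPKM in TBX3iso1 cells and 11.2 ± 0.321 RPKM in TBX3iso2 cells, and no library overlapped another line. It was lower with TBX3iso2 than in EV (log2 fold change -0.61 ± 0.0804, adjusted p = 0.00084) and than with TBX3iso1 (-0.91 ± 0.0804, adjusted p = 0.000736). The TBX3iso2 value against EV was just over the fold threshold and was -0.55 without the first EV library and -0.58 without the first TBX3iso2 library.

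*TPI1*, which interconverts the triose phosphates and closes the preparatory phase, was at 314 and 305 RPKM in EV, 514 and 599 RPKM with TBX3iso1, and 338 and 401 RPKM with TBX3iso2. *GAPDH*, which opens the payoff phase by oxidising glyceraldehyde 3-phosphate, was at 1542 and 1502 RPKM in EV, 2585 and 2953 RPKM with TBX3iso1, and 1762 and 2006 RPKM with TBX3iso2. In both genes the lines did not overlap, with EV lowest and TBX3iso1 highest. *TPI1* rose with TBX3iso1 (log2 fold change 0.84 ± 0.126, adjusted p = 0.00151) and so did *GAPDH* (0.86 ± 0.165, adjusted p = 0.00465). With TBX3iso2 against EV the log2 fold changes were 0.25 ± 0.126 (adjusted p = 0.138) and 0.31 ± 0.165 (adjusted p = 0.167). *TPI1* was lower with TBX3iso2 than with TBX3iso1 (-0.59 ± 0.126, adjusted p = 0.0211), a call near both thresholds that 9 of 17 alternative analyses did not make. It was lost without either EV library (adjusted p = 0.0814 and 0.08), without the second TBX3iso1 library (-0.48) and without the first TBX3iso2 library (-0.47). Here *GAPDH* was not called (-0.56 ± 0.165, adjusted p = 0.0633). The TBX3iso1 call of *GAPDH* was not made when either EV library was left out, because the adjusted p was then not under 0.05. The log2 fold change was 0.88 without the first and 0.84 without the second. After quantile normalization *GAPDH* was not called either, at 0.52, under the fold threshold. That normalization gives each rank the same value in every library, which limits how far the most abundant genes can move. *PGK1* and *PGAM1*, the following enzymes, were at 252 to 323 RPKM and 181 to 244 RPKM, with log2 fold changes of 0.27 and 0.34 with TBX3iso1, 0.05 and 0.32 with TBX3iso2, and no call. The annotation names 65 *GAPDH*, 13 *PGAM1* and 4 *TPI1* pseudogenes, and how the authors' counting placed reads shared with them is not stated. Of the copies in the table, *TPI1P2* was at 5.45 to 5.74 RPKM in EV and 7.40 and 8.32 RPKM with TBX3iso1, and *PGAM4* was at 6.02 to 8.07 RPKM throughout.

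Enolase makes phosphoenolpyruvate, from which pyruvate kinase makes pyruvate. *ENO1*, the ubiquitous enolase, was at 606 and 629 RPKM in EV and at 746 to 896 RPKM in the TBX3 lines, with log2 fold changes of 0.44 ± 0.131 (adjusted p = 0.0287) and 0.37 ± 0.131 (adjusted p = 0.0525), neither of them called. *ENO2*, the neuronal enolase, was at 7.55 and 8.59 RPKM in EV, 20.0 and 19.6 RPKM with TBX3iso1, and 5.85 and 5.61 RPKM with TBX3iso2. No library overlapped another line. *ENO2* rose with TBX3iso1 (log2 fold change 1.29 ± 0.0884, adjusted p = 4.49e-05), the highest value of any member in that comparison. With TBX3iso2 it was lower than EV by less than 1.5-fold (-0.48 ± 0.0884, adjusted p = 0.00358) and lower than TBX3iso1 by -1.77 ± 0.0884 (adjusted p = 6.53e-05). *ENO3*, the muscle enolase, was at 3.06 to 4.81 RPKM and was not called, although with TBX3iso2 its log2 fold change against EV went from -0.47 to -0.59 (adjusted p = 0.00574) without the second TBX3iso2 library. *PKM*, the pyruvate kinase gene, was at 1472 to 1658 RPKM, and its log2 fold changes were -0.06 ± 0.146 and -0.07 ± 0.146. The table holds gene values and does not separate its M1 and M2 splice forms.

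Lactate dehydrogenase has a muscle-type subunit, *LDHA*, and a heart-type subunit, *LDHB*. *LDHA* was at 459 and 461 RPKM in EV, 651 and 713 RPKM with TBX3iso1, and 543 and 578 RPKM with TBX3iso2. *LDHB* was at 284 and 293 RPKM in EV, 487 and 554 RPKM with TBX3iso1, and 343 and 406 RPKM with TBX3iso2. Both genes had EV lowest and TBX3iso1 highest, without overlap. *LDHB* rose with TBX3iso1 (log2 fold change 0.85 ± 0.121, adjusted p = 0.00124), whereas *LDHA* was the uncalled member nearest to the fold threshold (0.57 ± 0.109, adjusted p = 0.00473) and reached 0.63 without the first TBX3iso1 library. With TBX3iso2, *LDHA* and *LDHB* had log2 fold changes of 0.29 ± 0.109 (adjusted p = 0.0661) and 0.37 ± 0.121 (adjusted p = 0.0388) against EV, neither called. *LDHB* was at -0.48 ± 0.121 with TBX3iso2 against TBX3iso1 (adjusted p = 0.0385), also under the fold threshold, and at -0.60 (adjusted p = 0.0261) without the second TBX3iso2 library. The *LDHB* to *LDHA* ratio of RPKM was 0.627 ± 0.0131 (SD, n = 2) in EV, 0.762 ± 0.0207 with TBX3iso1 and 0.667 ± 0.0505 with TBX3iso2.

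Of the lactate transporters, *SLC16A3* (MCT4), typical of lactate-exporting cells, was the more abundant, at 206 and 189 RPKM in EV, 161 and 174 RPKM with TBX3iso1, and 142 and 159 RPKM with TBX3iso2. *SLC16A1* (MCT1) was at 25.7 and 24.1 RPKM in EV and at 31.2 to 33.1 RPKM in the TBX3 lines. Neither was called. The log2 fold changes were -0.23 ± 0.0983 (adjusted p = 0.0877) and -0.39 ± 0.0983 (adjusted p = 0.0145) for *SLC16A3*, and 0.35 ± 0.071 (adjusted p = 0.00581) and 0.39 ± 0.071 (adjusted p = 0.00354) for *SLC16A1*, with TBX3iso1 and TBX3iso2.

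At the mitochondrial branch, the subunits of the pyruvate carrier and of pyruvate dehydrogenase were not called in any comparison. *MPC1* and *MPC2*, which form the carrier, were at 19.4 to 26.5 RPKM and 13.8 to 18.3 RPKM. *PDHA1* and *PDHB*, the E1 subunits of pyruvate dehydrogenase, were at 37.7 to 46.6 RPKM and 25.9 to 35.4 RPKM. The PDK kinases, which phosphorylate and inhibit E1, were all called with TBX3iso1, 1 higher and 3 lower. Of all genes, 21.5% were called in that comparison, 7.46% higher and 14.1% lower. The *PDK2* call was lost with a pseudocount of 1 RPKM and with quantile normalization.

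*PDK1* was at 3.44 and 3.32 RPKM in EV, 6.08 and 5.86 RPKM with TBX3iso1, and 4.99 and 4.97 RPKM with TBX3iso2. *PDK4*, an isozyme induced by fasting and glucocorticoids in many tissues, was at 3.53 and 3.79 RPKM in EV, 1.11 and 1.06 RPKM with TBX3iso1, and 2.12 and 1.46 RPKM with TBX3iso2. These isozymes moved apart in the TBX3 lines, with every TBX3 library above EV for *PDK1* and below it for *PDK4*. *PDK1* rose with TBX3iso1 (log2 fold change 0.80 ± 0.0879, adjusted p = 0.000371), and its value with TBX3iso2 was the uncalled one nearest to the threshold (0.54 ± 0.0879, adjusted p = 0.00207). *PDK4* fell with TBX3iso1 (-1.66 ± 0.173, adjusted p = 0.000297) and with TBX3iso2 (-1.01 ± 0.173, adjusted p = 0.0027). It was higher with TBX3iso2 than with TBX3iso1 (0.65 ± 0.173, adjusted p = 0.044), a call that 12 of 17 alternative analyses did not make. Leaving out a library lost it in every case but the second TBX3iso2 library, with adjusted p = 0.103 to 0.124, and the log2 value ran from 0.40 without the first TBX3iso2 library to 0.91 without the second. Against EV, *PDK4* with TBX3iso2 ran from -1.27 to -0.76 in the same way and stayed called.

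*PDK2*, the most widespread PDK isozyme, was at 2.84 and 2.70 RPKM in EV, 1.70 and 1.57 RPKM with TBX3iso1, and 1.35 and 1.22 RPKM with TBX3iso2. *PDK3* was at 4.83 and 5.01 RPKM in EV and at 2.69 to 2.80 RPKM in the 4 TBX3 libraries. *PDK2* fell by -0.73 ± 0.122 (adjusted p = 0.00249) and -1.06 ± 0.122 (adjusted p = 0.00044) on the log2 scale with TBX3iso1 and TBX3iso2, and *PDK3* by -0.84 ± 0.096 (adjusted p = 0.000453) and -0.82 ± 0.096 (adjusted p = 0.000473). All PDK genes together summed to 14.7 ± 0.136 RPKM in EV (SD, n = 2), against 11.4 ± 0.246 RPKM for TBX3iso1 and 10.8 ± 0.652 RPKM for TBX3iso2. *PDK1* supplied 23.5% and 22.4% of that sum in the EV libraries, 52.4% on average with TBX3iso1 and 46.2% with TBX3iso2, and *PDK3*, the leading isozyme in EV at 33.4%, supplied 23.8% and 25.5%. The shares are given as a description, and differences between them were not tested.

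**Figure D2:**
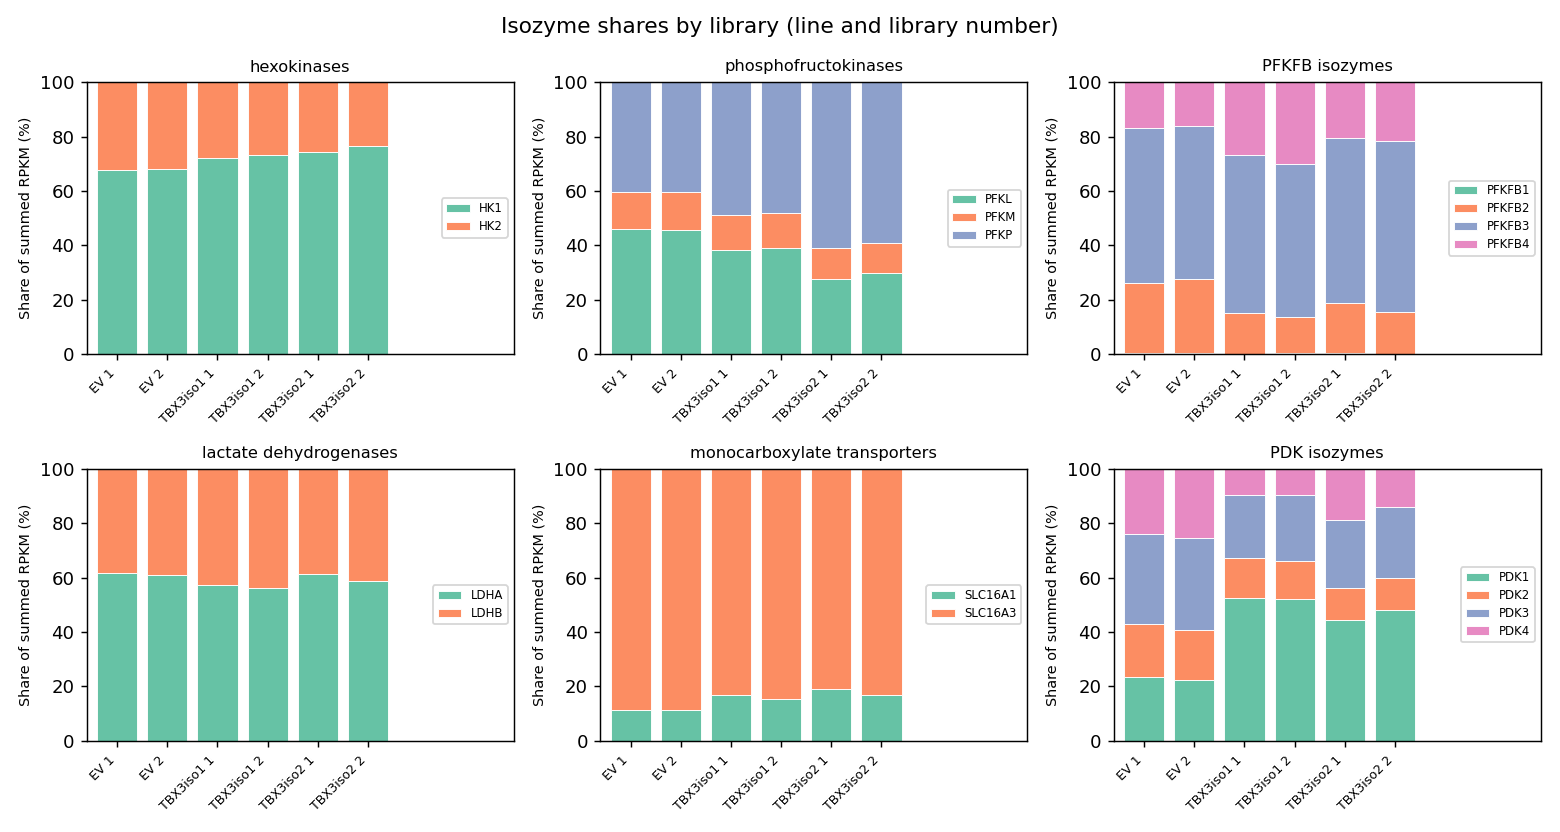
Stacked bars give each isozyme's share, in percent, of the summed RPKM of its step in each of the 6 libraries. *PFKP* overtook *PFKL* and *PDK1* became the largest PDK share in both TBX3 lines, while the *LDHA* and *LDHB* shares moved by a few points.

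*PCK2*, the mitochondrial phosphoenolpyruvate carboxykinase, which makes phosphoenolpyruvate from oxaloacetate, was at 11.3 and 10.7 RPKM in EV, 4.81 and 4.82 RPKM with TBX3iso1, and 5.19 and 6.20 RPKM with TBX3iso2. It fell with TBX3iso1 (log2 fold change -1.18 ± 0.104, adjusted p = 0.000137) and with TBX3iso2 (-0.94 ± 0.104, adjusted p = 0.00036), with no overlap with EV. *FBP1*, the gluconeogenic phosphatase that opposes phosphofructokinase, was at 0.929 and 0.733 RPKM in EV and at 0.109 to 0.323 RPKM in the TBX3 lines, and averaged too little over the 6 libraries to pass the filter. With no filter its log2 fold change was -1.69 with TBX3iso1 (adjusted p = 0.0462, called lower) and -1.55 with TBX3iso2 (adjusted p = 0.0563, not called). With only the libraries of the lines compared, it passed the filter and was called lower with both isoforms. It passed only through EV, with a mean of 0.831 RPKM there against 0.201 RPKM with TBX3iso1 and 0.229 RPKM with TBX3iso2. Entry to that test thus depended on the difference tested, and no conclusion is drawn from these calls.

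Several members called higher with TBX3iso1 lie on the same chromosome arm, which was seen after their values were known and is given as a description. In GRCh37, the build of the alignments, 5 of the 36 members lie on the short arm of chromosome 12, which ends at the centromere gap from 34856695 to 37856694: *GAPDH* (6643678 to 6647540, plus strand), *TPI1* (6976283 to 6980112, plus), *ENO2* (7022909 to 7032861, plus), *SLC2A3* (8071826 to 8171603, minus) and *LDHB* (21788276 to 21910791, minus). All 5 were called higher with TBX3iso1, and they are 5 of the 7 members so called. The other genes tested on 12p, 150 in all, had a median of 0.39 on the log2 scale for TBX3iso1 against EV, and 32.7% of them were called higher, against 7.46% of all genes tested. On 12q, 495 genes had a median of -0.11 and 3.43% were higher. The 12p median was 0.43 and 0.37 in the TBX3iso1 libraries relative to EV, and -0.04 and -0.11 in the TBX3iso2 libraries. It ranked 2 of 41 arms with TBX3iso1, 33 with TBX3iso2, and last between TBX3iso2 and TBX3iso1, at -0.48. Without the 12p members, 2 of 29 members were called higher and 6 lower with TBX3iso1, with a median of 0.04. DNA was not measured in these libraries, and the part of the arm-wide shift in the members' values was not tested.

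The 12p members did not go together with TBX3iso2, where *TPI1*, *GAPDH* and *LDHB* had log2 fold changes of 0.25, 0.31 and 0.37, *ENO2* -0.48 and *SLC2A3* -1.78. *PDK1*, also higher with TBX3iso1, lies on 2q (173420101 to 173473397 of chromosome 2, plus strand), the arm ranked 1 with both isoforms. The 452 other genes tested on 2q had medians of 0.40 and 0.51, and 29.9% and 40.3% of them were called higher with TBX3iso1 and TBX3iso2, beside 7.46% and 8.94% of all genes. Here too the part of the arm in the value of *PDK1* was not tested. *PFKP*, on 10p, and *PFKFB4* are the other members called higher with an isoform.

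**Figure D3:**
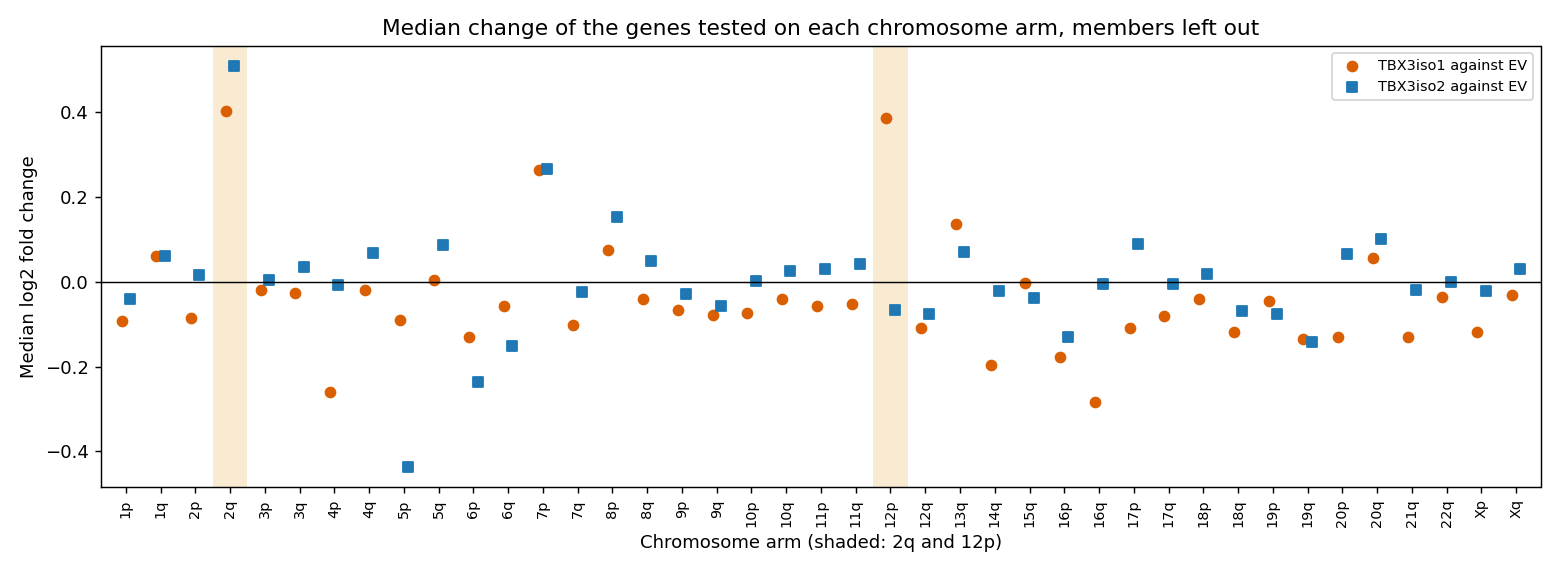
Points give the median log2 fold change against EV of the genes tested on each of 41 chromosome arms, members left out, with TBX3iso1 as circles and TBX3iso2 as squares. With TBX3iso1, 12p (0.39) and 2q (0.40) stand above the other arms, and with TBX3iso2 12p is at -0.07 while 2q is at 0.51.

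Promoters of 4 of the 5 members on 12p, *GAPDH*, *TPI1*, *ENO2* and *LDHB*, are shown because these genes rose together with TBX3iso1. The other, *SLC2A3*, rose too but had no entry among the promoters used. Each line gives the 150 bases upstream of a RefSeq start in GRCh38.p14, 5′ to 3′ on the strand of the gene, with capitals marking ACGTG or GCGTG, the core letters of hypoxia response elements, or CACGTG, the E-box, on either strand (an E-box contains ACGTG on both strands).
GAPDH, chr12:6535114-6535263, plus strand: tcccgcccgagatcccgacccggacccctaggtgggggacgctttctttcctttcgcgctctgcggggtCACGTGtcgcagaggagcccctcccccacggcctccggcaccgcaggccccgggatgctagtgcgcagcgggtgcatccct
TPI1, chr12:6867955-6868104, plus strand: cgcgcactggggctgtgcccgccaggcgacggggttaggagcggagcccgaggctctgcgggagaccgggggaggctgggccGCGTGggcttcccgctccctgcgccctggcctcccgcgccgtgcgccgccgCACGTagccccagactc
ENO2, chr12:6914430-6914579, plus strand: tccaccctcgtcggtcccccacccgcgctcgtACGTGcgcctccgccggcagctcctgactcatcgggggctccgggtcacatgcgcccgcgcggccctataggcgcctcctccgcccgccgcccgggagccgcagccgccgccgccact
LDHB, chr12:21657843-21657992, minus strand: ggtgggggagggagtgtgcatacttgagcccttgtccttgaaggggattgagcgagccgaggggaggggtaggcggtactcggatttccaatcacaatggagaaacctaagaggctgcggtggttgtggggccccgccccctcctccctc

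*GAPDH* holds an E-box, *ENO2* an ACGTG, *TPI1* both core letters at the start shown and none at its other RefSeq start, and *LDHB* none in this stretch. Over the whole RefSeq windows, 250 bases before to 50 after each start, 33 of the 36 members had 65 windows. ACGTG was in 32.3% of these windows (17 members) and in 21.4% of all 35116 windows, GCGTG in 43.1% (23 members) and 36.5%, and CACGTG in 12.3% (8 members) and 7.26%. AGGTGTG, core letters of the T-box element, was in 1 member, *PGAM1*, or 1.54% of the windows, beside 4.59% of all. Among the windows of the genes tested here, the shares were 25.6% for ACGTG, 48.5% for GCGTG, 9.28% for CACGTG and 3.86% for AGGTGTG. These matches describe letters and not sites.

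*GAPDH* was also the normaliser of the study's RT-qPCR in the 21NT transfectants. It took 0.473% and 0.464% of the summed RPKM in EV, 0.781% and 0.821% with TBX3iso1, and 0.532% and 0.562% with TBX3iso2. Of 11 other common reference genes, none was called with TBX3iso1 in limma, although 4 had an adjusted p under 0.05, and their log2 fold changes ran from -0.37 to 0.58 with a median of 0.13. With median-ratio scaling *PPIA* was called (0.67, adjusted p = 0.0138). *GAPDH* lay 0.73 above that median on the log2 scale. After quantile normalization it lay 0.52 above the median gene, then *ACTB*, whose unchanged rank left it no change. Without that normalization, the distance with TBX3iso2 was 0.22, and *PPIA* was called higher and *SDHA* lower than in EV. The *PPIA* call was lost after quantile normalization and that of *SDHA* with median-ratio scaling. *GAPDH* per *RPLP0*, the normaliser that the study used for its 21NT cells with SLUG knockdown, was 1.75 ± 0.0565 (SD, n = 2) in EV, 2.71 ± 0.0535 with TBX3iso1 and 1.95 ± 0.0379 with TBX3iso2. Per *ACTB*, a cytoskeletal actin, it was 0.405, 0.630 and 0.445. Read against *GAPDH*, *TBX3* was at 5.53 and 5.49 per 1000 *GAPDH* RPKM in EV, 5.08 and 3.86 with TBX3iso1, and 9.94 and 7.73 with TBX3iso2. The TBX3iso1 libraries thus lay below EV on that scale and above EV in RPKM. These are gene values of the sequenced libraries and do not separate the isoforms. By isoform-specific RT-qPCR normalised to *GAPDH*, the study reported that each isoform was up-regulated in its line. Total *TBX3* transcript, the closer counterpart of the values here, was also measured by RT-qPCR normalised to *GAPDH*. The outcome of that measurement is not stated in the study's text. The study also reported higher total TBX3 protein.

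**Figure D4:**
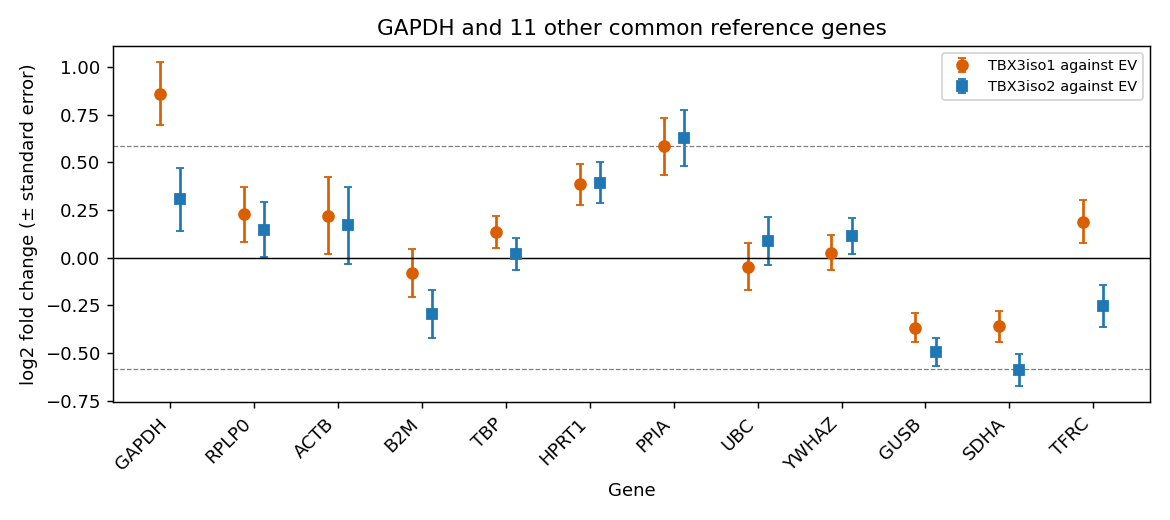
Points give the log2 fold change against EV with its standard error for *GAPDH* and 11 other common reference genes, TBX3iso1 as circles and TBX3iso2 as squares, with dashed lines at 1.5-fold. With TBX3iso1, *GAPDH* at 0.86 is the highest, and the others lie between -0.37 and 0.58.

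Other genes of the same steps were read from the same analysis. Of 42 further isozymes and partners, 23 were tested. With TBX3iso1, 2 were higher and 5 lower, with TBX3iso2 1 was higher and 6 lower, and between the isoforms 1 was higher and 1 lower with TBX3iso2. The called share of those tested was 30.4%, 30.4% and 8.7%, beside 21.5%, 21.2% and 6.29% of all genes. *SLC16A7* (MCT2), a high-affinity monocarboxylate transporter, fell from 3.86 and 3.91 RPKM (EV) to 0.618 and 0.506 RPKM (TBX3iso1) and 0.518 and 0.409 RPKM (TBX3iso2) (log2 fold changes -2.59 and -2.83, adjusted p = 3.16e-05 and 2.03e-05). *SLC2A12*, a glucose transporter, fell by -2.10 and -2.29 on the log2 scale, and *PC*, pyruvate carboxylase, by -1.09 and -1.07. *HKDC1*, a hexokinase family member, rose with TBX3iso1, from 1.34 and 1.32 RPKM to 5.03 and 4.66 RPKM (1.79, adjusted p = 6.88e-05), and was lower with TBX3iso2 than with TBX3iso1 (-1.37, adjusted p = 0.00114). *TIGAR*, a fructose bisphosphatase that is also on 12p, rose with TBX3iso1 (0.75, adjusted p = 0.00177).

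In the pentose phosphate pathway, which branches from glucose 6-phosphate, 6 of 7 genes were tested. TBX3iso1 had 1 of them higher and 1 lower than EV, and TBX3iso2 had 2 higher and 1 lower, where 21.5% and 21.2% of all genes were called. *PGLS*, the lactonase, fell with both isoforms (log2 fold changes -0.80 and -0.90) and *RPIA*, the ribose phosphate isomerase, rose with both (0.59 and 0.65). Among 18 tested HIF factors and genes known to respond to hypoxia, none was higher and 1 was lower with TBX3iso1, none was higher and 2 were lower with TBX3iso2, and 1 was lower with TBX3iso2 than with TBX3iso1, or 5.56%, 11.1% and 5.56% beside the same 21.5%, 21.2% and 6.29%. At any fold, limma's adjusted p was under 0.05 for 4 higher and 2 lower with TBX3iso1, 1 higher and 7 lower with TBX3iso2, and 10 lower between the isoforms, where 44.8%, 45.5% and 14.8% of all genes passed. *HIF1A*, the oxygen-regulated subunit of HIF1, was lower with TBX3iso1, at 272 and 239 RPKM against 452 and 463 RPKM in EV (-0.84, adjusted p = 0.00231). *NDRG1* was lower with TBX3iso2 than in EV (-1.24) and than with TBX3iso1 (-1.15), and *VEGFA*, an angiogenic factor, was lower than in EV (-0.75, adjusted p = 0.000289). On the log2 scale these 18 genes had a median of 0.01 for TBX3iso1, -0.23 for TBX3iso2 and -0.35 for TBX3iso2 against TBX3iso1.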

How the data were processed

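Per the labels and the study's methods, stranded mRNA libraries of the EV, TBX3iso1 and TBX3iso2 lines, 2 per line, were sequenced paired-end. The authors aligned reads to hg19 with TopHat in Galaxy and deposited RPKM values made in Partek Genomics Suite. Software versions, the gene annotation and the use of strand in counting are not given in the sources used here. The line of the deposited table that gives alignments is a count of alignments per library and was left out of the tests. Only 11.1% of 63212 low values were within 0.03 of a whole multiple, so reads were not recovered and the precision that depth gives per gene is unknown.

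Values were taken to log2(RPKM + 0.1), so that fold changes of low genes are understated. The 12805 genes that averaged 0.5 RPKM or more across all 6 libraries entered limma (version 3.58.1, R 4.3.3), with 1 mean per line, a trended empirical Bayes prior and Benjamini-Hochberg adjusted p-values. The model was tested on simulated data. Some genes of the further lists are not reported here. Members and lists were chosen with earlier results of these data known. Named are members called in a comparison, the most abundant isozyme of each step, *GAPDH*, the 2 members nearest to each side of the fold threshold, and up to 5 called genes of each further list and comparison with the largest changes; a few other members are given by their range, and fewer list genes are named than the rule allows. Positions come from GENCODE release 44 lifted to GRCh37, in which 86.7% of the genes had a position, and promoters from RefSeq. Genes without an entry were left out of the position and motif counts. The study's ANOVA on RPKM was replaced by limma, with the unmoderated model as an alternative. The alternatives tried were a pseudocount of 1 or 0.01 RPKM, leaving out the filter or setting it at 2 RPKM, median-ratio scaling, quantile normalization, only the lines compared, a replicate block, no trend, unmoderated models on log2 and unlogged RPKM, and leaving out each library.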

Additional observations from a re-analysis of the deposited data

How the results depend on the processing

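Of 29 calls of members, 19 held under every alternative in which the gene was tested (*PDK2* is left out by the filter at 2 RPKM), 10 were lost under at least 1, 4 further member values that had been tested were called under at least 1, and none changed sign. *FBP1*, which had missed the filter at 0.5 RPKM, was called in 2 comparisons, lower with TBX3iso1 (no filter, or only the lines compared) and with TBX3iso2 (only the lines compared). With only the lines compared, it passed the filter through its EV level alone. Besides *PDK4* and *TPI1* between the isoforms and *GAPDH*, the lost calls were *HK2*, *PFKFB2* and *PDK2* with TBX3iso1, *ALDOC* and *PDK4* with TBX3iso2, and *PFKP* and *ALDOC* between the isoforms, and the gained ones *LDHA* with TBX3iso1, *ENO3* and *PDK1* with TBX3iso2 and *LDHB* between the isoforms. Members called ranged over 12 to 14, 8 to 10 and 5 to 8 without 1 library. Without the 12p members, an alternative chosen after seeing the data, 8 were called with TBX3iso1 and 4 between the isoforms, and the TBX3iso1 median was 0.035. The unmoderated model on unlogged RPKM also called 4 between the isoforms. The median was 0.22 (median-ratio scaling) and 0.10 (quantile) with TBX3iso1, and -0.11 (no filter) and -0.12 (quantile) with TBX3iso2. Without 1 library it was 0.11 to 0.16 with TBX3iso1, -0.11 to 0.013 with TBX3iso2 and -0.18 to -0.072 between the isoforms. The distance of *GAPDH* from the reference median was 0.52, 0.37 and -0.12 after quantile normalization. With other isozymes added, shares in EV, TBX3iso1 and TBX3iso2 were 92.5%, 93.3% and 92.5% for *SLC2A1* and 66.9%, 67.7% and 73.2% for *HK1*, those in EV and TBX3iso1 were 0.773% and 1.59% for *SLC2A3* and 31.6% and 25.4% for *HK2*, and those in EV were 11.0% for *SLC16A1* and 87.3% for *SLC16A3*. Over all genes, 2757 calls with TBX3iso1 became 1812 with a pseudocount of 1, and 805 between the isoforms became 419 with that pseudocount, 504 with the higher filter, and 199 and 186 in the unmoderated models. Higher and lower calls, 955 and 1802 with TBX3iso1, became 1263 and 1449 (median-ratio) and 1268 and 1306 (quantile), and 444 and 361 between the isoforms became 351 and 440 and 348 and 434. With the replicate block, 13, 9 and 7 members were called, as without it. The sources do not say whether same-numbered libraries share more than the number. Their deviations correlated at 0.22, 0.114 and 0.499 in the 3 comparisons, from 2 pairs each. The cause of these differences was not tested.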
